A study of Mus musculus with 4 samples.

Results

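The genes described here are 43 genes of Nodal, TGF-beta and BMP signalling, chosen by symbol from the 22138 genes of the deposited table. They comprised 18 genes of the Nodal and TGF-beta arm, 17 of the BMP arm and 8 that serve both. All 43 were found, each on 1 row and each annotated as protein coding. RNA was sequenced from TT2 cells, a line of female mouse embryonic stem cells from C57BL/6xCBA, kept without feeder cells in serum and LIF. One group received control siRNA (n = 2 libraries) and the other siRNA against Hnrnpk (n = 2 libraries), at 100 nM and, 24 hours later, at 50 nM, and cells were collected about 72 hours after the second transfection. All cells were of 1 line, both groups went through the same pair of transfections, and the siRNA sequences were not used here. The series title connects hnRNP K, which binds RNA and DNA, with silencing by the histone methyltransferase SETDB1, and the comparison asks which transcripts differed when Hnrnpk was depleted.

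Ligands of the TGF-beta family bind paired type I and type II serine/threonine kinase receptors, which phosphorylate SMAD proteins. Nodal, activins and TGF-betas signal through SMAD2 and SMAD3, whereas BMPs signal through SMAD1 and SMAD5, and both pairs enter the nucleus with SMAD4. In mouse embryonic stem cells, BMP4 in serum acts with LIF through Id genes to hold off neural differentiation, and Nodal, made by the cells themselves, drives its own feedback inhibitors Lefty1 and Lefty2.

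The values are RPKM, reads scaled to gene length and library size, so levels can be compared between genes. Hnrnpk stood at 236 and 226 RPKM under control siRNA, against 68.0 and 70.5 RPKM under Hnrnpk siRNA, in the direction of the labels. Changes are given as differences of log2(RPKM + 0.5), Hnrnpk siRNA minus control siRNA, a scale that understates the change of genes near or below 0.5 RPKM. A gene was tested with limma if its mean over the libraries reached 0.5 RPKM and was called where its p, adjusted by Benjamini-Hochberg over all 12486 genes tested, was under 0.05. Calls were common in these libraries: 67.2% of all genes tested were called, 32.2% higher and 35.0% lower after Hnrnpk siRNA, and the median log2 change was -0.015. Of the 43 members 36 were tested. Of these, 16 were called higher, 10 lower and 10 were not called, so the share called was 72.2%, near that of all genes. One of those called higher, Tgfb2, reached the filter only through its Hnrnpk siRNA libraries. Groups of libraries did not overlap for 30 of the 36 tested members, against 84.7% of all genes tested. Without Hnrnpk siRNA replicate 2 fewer members were called lower, and fewer of all genes were too. On the scale of log2(RPKM + 0.5), 5 members were called higher by at least 2-fold (Id2, Nodal, Id3, Fst and Id1), where 4% of all genes were. On the same scale 1 was called lower by at least 2-fold (Skil), where 4.52% of all genes were. Tgfbr3 was called higher at 0.88 on this scale, short of 2-fold, though its ratio of mean RPKM was 2.62. The members' median log2 change was 0.20. By arm it was -0.064 over 15 tested members of the Nodal and TGF-beta arm, 0.21 over 14 of the BMP arm and 0.28 over 7 shared ones.

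**Figure D1:**
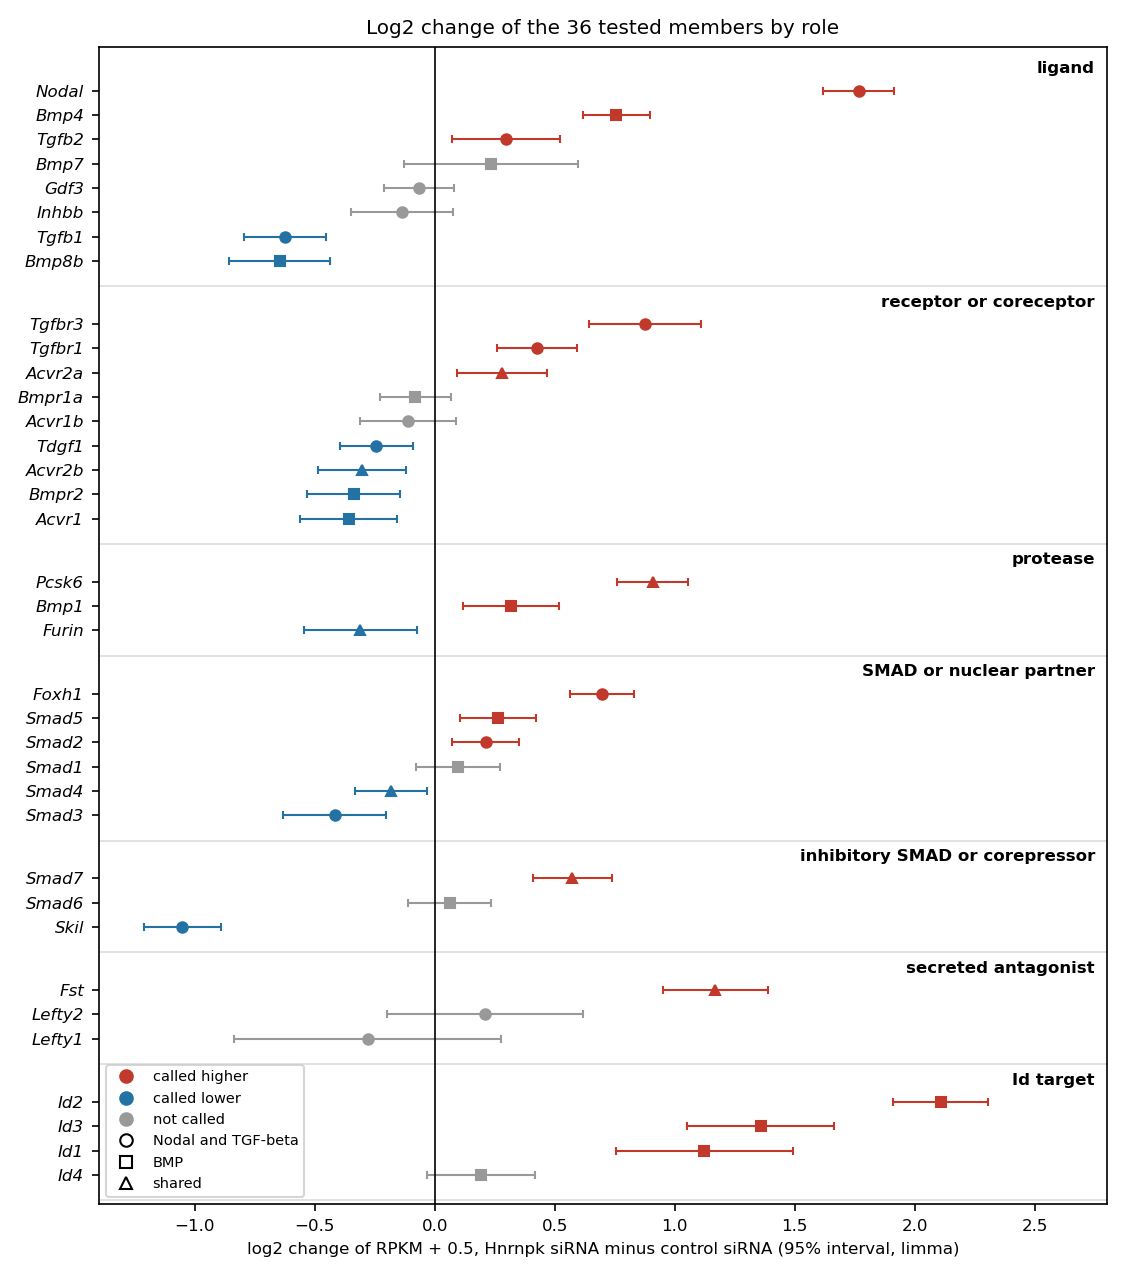
Log2 change of RPKM + 0.5 (Hnrnpk siRNA minus control siRNA) on the x axis for the 36 tested members, grouped by role on the y axis, with 95% intervals from limma; colour gives the call and the symbol gives the arm. Id2 and Nodal lie farthest to the right at 2.11 and 1.77, Skil farthest to the left at -1.05, and receptors lie between -0.36 and 0.88.

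Among the ligands, Nodal (ENSMUSG00000037171), the secreted signal that patterns the early embryo, changed most. It was at 19.3 and 19.6 RPKM under control siRNA, against 64.7 and 69.9 RPKM under Hnrnpk siRNA. The groups lay far apart and the replicates close together. Mean RPKM was 19.4 ± 0.234 and 67.3 ± 3.73 (SD, n = 2 each), a ratio of 3.47 (log2 change 1.77, SE 0.0656, 95% interval 1.62 to 1.91, limma adjusted p = 7.58e-08). After Hnrnpk siRNA only Tdgf1, Gdf3, Foxh1 and Id3 had a higher mean RPKM among the members, and the libraries of Nodal and Id3 overlapped.

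The sequence around the Nodal start site, from 250 bases before to 50 bases after it, is shown because Nodal is the ligand with the largest change. It is the RefSeq window on GRCm38.p6, a later build than the mm9 named in the submitters' processing notes. It was searched on both strands for GGCGCC, a GC-rich element bound by the SMADs of the BMP arm, and for CAGAC, a SMAD3 and SMAD4 element. Neither run of letters was found in this window.
Nodal (chr10:61417722-61418021, plus strand): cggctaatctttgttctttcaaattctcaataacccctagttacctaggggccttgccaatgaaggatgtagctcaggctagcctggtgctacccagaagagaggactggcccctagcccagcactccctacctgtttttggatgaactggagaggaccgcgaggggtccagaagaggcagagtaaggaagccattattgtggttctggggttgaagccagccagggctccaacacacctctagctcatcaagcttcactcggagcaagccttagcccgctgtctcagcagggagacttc

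Gdf3, a Nodal-related ligand abundant in embryonic stem cells, was at 97.0 and 103 RPKM under control siRNA, against 93.4 and 98.1 RPKM under Hnrnpk siRNA, and the groups overlapped. Its log2 change of -0.064 (95% interval -0.21 to 0.082) was not called by limma. It was called under quantile normalization, at -0.16 (adjusted p = 0.0392, range over 13 alternatives 0.0392 to 0.851). Inhbb, the activin B subunit, was at 8.41 and 10.3 RPKM against 8.45 and 8.37 RPKM and was not called (log2 change -0.14, 95% interval -0.35 to 0.075). Without control siRNA replicate 1 it was called lower at -0.27 (limma adjusted p = 0.00807, range over the alternatives 0.00807 to 1), and it was 4.71e-05 without control siRNA replicate 2 and 0.034 with GC trends removed. Inhba, the activin A subunit, was nearly absent, between 0.0041 and 0.0223 RPKM in all libraries, and was not tested.

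Tgfb1, the TGF-beta ligand with the highest level here, fell. It was at 9.41 and 8.82 RPKM after control siRNA and at 5.68 and 5.79 RPKM after Hnrnpk siRNA, with no overlap (log2 change -0.62, SE 0.0755, limma adjusted p = 6.54e-05). Tgfb2 was at 0.373 and 0.453 RPKM against 0.618 and 0.625 RPKM, without overlap. It reached the filter only through the group where it was higher, so its call (log2 change 0.30, limma adjusted p = 0.0237) was conditional on that difference. With no filter its adjusted p was 0.0489. With an added 0.1 RPKM in place of 0.5 its log2 change was 0.50. Tgfb3 was too low to be tested, at 0.266 and 0.261 RPKM against 0.078 and 0.115 RPKM. Without the filter on low values it was called lower, at -0.36 (limma adjusted p = 0.0205). A filter of 1 RPKM, or leaving out either Hnrnpk siRNA library, left Tgfb2 untested.

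Of the BMP ligands, Bmp4 (ENSMUSG00000021835), whose product supports self-renewal together with LIF, rose. It was at 17.5 and 17.3 RPKM under control siRNA, against 29.5 and 29.9 RPKM under Hnrnpk siRNA. Replicates were almost equal and the groups far apart (17.4 ± 0.122 and 29.7 ± 0.228 RPKM, SD, n = 2 each; ratio 1.71, log2 change 0.76, SE 0.0622, limma adjusted p = 6.12e-06). Bmp8b, a ligand of the BMP8 pair, went the other way, from 1.54 and 1.47 RPKM to 0.741 and 0.822 RPKM (log2 change -0.65, limma adjusted p = 0.000211). Part of Bmp8b, 12.2% of its annotated exons, is overlapped by genes on the opposite strand, and the sources used here do not say whether counting used the strand. Such overlap was found for 10 of the 43 members, among them Tgfb3 (12.4%) and Acvr2a (7.84%). Bmp7 was at 4.63 and 2.85 RPKM under control siRNA, against 4.39 and 4.37 RPKM under Hnrnpk siRNA. Control siRNA replicate 1 lay above both Hnrnpk siRNA libraries and replicate 2 below them, so the direction of Bmp7 depended on the control library: its log2 change was 0.24 with all libraries (not called), 0.54 without control siRNA replicate 1 (limma adjusted p = 6.8e-05) and -0.071 without control siRNA replicate 2 (adjusted p = 0.467). Bmp2 was at 0.0698 to 0.139 RPKM in the libraries and was not tested.

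Proteases that process these ligands differed in direction. Pcsk6 (also called PACE4), a convertase that cleaves the Nodal precursor, rose from 12.9 and 12.7 RPKM to 25.1 and 23.8 RPKM. The groups were 12.8 ± 0.109 and 24.5 ± 0.933 RPKM (SD, n = 2 each), a ratio of 1.91 (log2 change 0.91, SE 0.0661, limma adjusted p = 2.92e-06). Furin, the other convertase known to act on Nodal, was at 4.69 and 3.73 RPKM against 3.23 and 3.34 RPKM, called lower at a log2 change of -0.31 (limma adjusted p = 0.0248). The fall of Furin was not called in 6 of 13 alternatives, among them those without control siRNA replicate 1 (-0.16, adjusted p = 0.112), without Hnrnpk siRNA replicate 1 (-0.29, adjusted p = 0.122) and the other Hnrnpk siRNA library, replicate 2 (-0.33, adjusted p = 0.0804), with a range of 0.000356 to 0.194. Bmp1, a metalloprotease that cleaves the BMP antagonist chordin and is no BMP ligand despite its name, was at 1.27 and 1.25 RPKM against 1.71 and 1.67 RPKM (log2 change 0.32, limma adjusted p = 0.01). Its call was lost when either Hnrnpk siRNA library was left out, replicate 1 (0.30, adjusted p = 0.1) or replicate 2 (0.33, adjusted p = 0.0788; range 0.00134 to 0.1).

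The coreceptor Tdgf1 (Cripto), which presents Nodal to its receptors, was the most abundant member. It was at 236 and 231 RPKM under control siRNA, against 190 and 205 RPKM under Hnrnpk siRNA, a small called fall (log2 change -0.24, SE 0.0677, limma adjusted p = 0.00971). The call was lost without Hnrnpk siRNA replicate 1 (-0.19, adjusted p = 0.062) and with no filter on low values (adjusted p = 0.0659; range 0.000387 to 0.0659). Its longest coding transcript shares 26.5% of its bases with the pseudogene Tdgf1-ps1, so its level may be uncertain, and the extent was not tested.

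Acvr1b (ALK4), the type I receptor of Nodal and activin, was at 8.12 and 6.93 RPKM against 7.07 and 6.74 RPKM and was not called (log2 change -0.11, 95% interval -0.31 to 0.088). Without control siRNA replicate 2 it was called, at -0.22 (limma adjusted p = 0.0307, range 0.0307 to 0.966). Tgfbr1 (ALK5), the TGF-beta type I receptor, rose from 6.11 and 5.99 to 8.52 and 8.08 RPKM (log2 change 0.43, limma adjusted p = 0.00072). Its partner Tgfbr2 stayed between 0.246 and 0.391 RPKM in all libraries and was not tested. Tgfbr3 (betaglycan), a coreceptor for TGF-beta2 and inhibin, rose by the most of the receptors but from a low level, 0.581 and 0.477 RPKM to 1.49 and 1.29 RPKM (log2 change 0.88, limma adjusted p = 5.77e-05; 1.24 with an added 0.1 RPKM).

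Of the receptors listed in the BMP arm, Acvr1 and Bmpr2 fell and Bmpr1a was not called. Acvr1 (ALK2) was at 2.03 and 1.88 RPKM against 1.4 and 1.42 RPKM (log2 change -0.36, limma adjusted p = 0.00565), and Bmpr2, the BMP type II receptor, at 8.59 and 8.29 RPKM against 7.09 and 6.09 RPKM (-0.34, adjusted p = 0.00642). The Acvr1 call was lost without either Hnrnpk siRNA library (-0.35 with adjusted p = 0.0598 without replicate 1, -0.37 with adjusted p = 0.0529 without replicate 2; range 0.00135 to 0.0598). The Bmpr2 call was lost without Hnrnpk siRNA replicate 2 (-0.24, adjusted p = 0.0953; range 0.0009 to 0.0953) and with no filter (adjusted p = 0.0897). Bmpr1a (ALK3) was at 17.4 and 16.9 RPKM against 16.5 and 15.9 RPKM, not called at -0.081 (95% interval -0.23 to 0.067) and called at -0.21 with GC trends removed (limma adjusted p = 0.0181, range 0.0181 to 0.63).

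The type II receptors that activin, Nodal and BMPs share went opposite ways, and Acvr2b stayed the more abundant in every library. Acvr2b was at 19.3 and 16.9 RPKM against 15.2 and 13.9 RPKM (log2 change -0.30, limma adjusted p = 0.00825), and Acvr2a at 3.45 and 3.34 RPKM against 4.40 and 4.06 RPKM (0.28, adjusted p = 0.0143). Neither small call held in every alternative. With GC trends removed Acvr2a was 0.13 (limma adjusted p = 0.177), and with no filter on low values both calls were lost (adjusted p = 0.0608 for Acvr2a and 0.113 for Acvr2b). Without Hnrnpk siRNA replicate 2 Acvr2b was -0.24 (adjusted p = 0.068; range 0.000711 to 0.113), and without Hnrnpk siRNA replicate 1 Acvr2a was 0.23 (adjusted p = 0.164; range 0.0027 to 0.177). Over the 9 tested receptors and coreceptors, 3 were called higher and 4 lower. The share called was 77.8%, beside 67.2% of all genes tested.

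**Figure D2:**
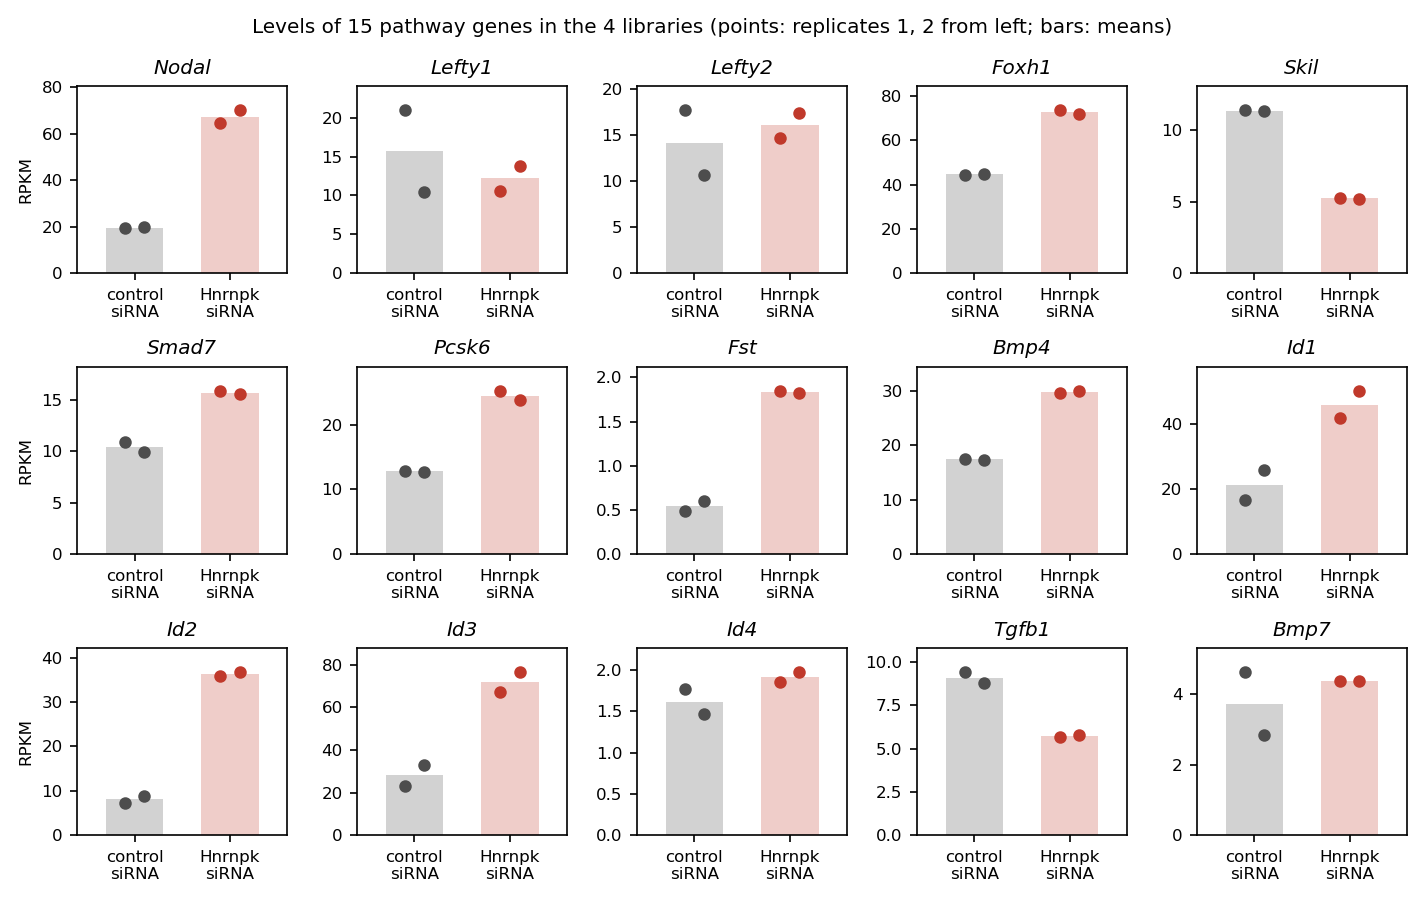
RPKM (y axis, from 0) in the control siRNA and Hnrnpk siRNA libraries (x axis) for 15 members; points are the libraries, replicate 1 at the left of each pair, and bars are group means. Nodal, Foxh1, Pcsk6, Bmp4, Id1, Id2 and Id3 show both Hnrnpk siRNA points above both control points, Skil and Tgfb1 below, while the control points of Lefty1, Lefty2 and Bmp7 span the Hnrnpk siRNA points or overlap them.

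Among the SMADs and their nuclear partners, the largest called change was in the transcript of FOXH1, the forkhead factor that brings activated SMAD2 to Nodal target genes. Foxh1 was at 44.4 and 45.0 RPKM under control siRNA, against 73.6 and 71.9 RPKM under Hnrnpk siRNA. The groups were far apart (44.7 ± 0.415 and 72.7 ± 1.18 RPKM, SD, n = 2 each; ratio 1.63, log2 change 0.70, SE 0.0598, limma adjusted p = 7.77e-06).

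SMAD transcripts changed by less. Smad2 was at 20.7 and 20.5 RPKM against 23.9 and 24.0 RPKM (log2 change 0.21, limma adjusted p = 0.0126), whereas Smad3, the other receptor-regulated SMAD of the Nodal and TGF-beta arm, fell from 5.67 and 4.77 to 3.88 and 3.66 RPKM (-0.42, adjusted p = 0.00348). Smad2 was thus the more abundant of the pair in every library. The Smad2 call was lost when Hnrnpk siRNA replicate 1 (0.21, adjusted p = 0.0633) or replicate 2 was left out (0.21, adjusted p = 0.0676) and with GC trends removed (0.13, adjusted p = 0.0737; range 0.00905 to 0.0737). The Smad3 call was lost with no filter (adjusted p = 0.0824, range 0.000105 to 0.0824).

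In the BMP arm, Smad5 was at 9.79 and 9.89 RPKM against 12.2 and 11.6 RPKM (log2 change 0.26, limma adjusted p = 0.00797), and without Hnrnpk siRNA replicate 1 its call was lost (0.23, adjusted p = 0.0882; range 0.00453 to 0.0882). Smad1 was at 6.68 and 6.19 RPKM against 6.82 and 7.01 RPKM and was not called (0.097, 95% interval -0.077 to 0.27). Smad4, the partner common to both arms and the most abundant SMAD, was at 40.4 and 36.9 RPKM against 34.1 and 33.8 RPKM (-0.18, limma adjusted p = 0.0346). That fall was not called in 5 of 13 alternatives. These were no filter on low values, no trend, and leaving out control siRNA replicate 1 (-0.12), Hnrnpk siRNA replicate 1 (-0.19) or Hnrnpk siRNA replicate 2 (-0.18).

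The intracellular inhibitors went different ways. Skil (ENSMUSG00000027660), which encodes the SMAD2/3 corepressor SnoN and is itself a TGF-beta target, fell furthest of the tested members. It was at 11.4 and 11.3 RPKM under control siRNA, against 5.25 and 5.22 RPKM under Hnrnpk siRNA. Replicates were nearly equal in each group (11.4 ± 0.0409 and 5.23 ± 0.0210 RPKM, SD, n = 2 each; ratio 0.46, log2 change -1.05, SE 0.0717, limma adjusted p = 2.02e-06). Smad7, the inhibitory SMAD induced by both arms, rose from 10.9 and 9.89 to 15.8 and 15.5 RPKM (log2 change 0.57, SE 0.0732, limma adjusted p = 9.44e-05). Smad6, the inhibitory SMAD that acts mainly on BMP signals, was at 5.21 and 5.24 RPKM against 5.56 and 5.39 RPKM and was not called (0.062, 95% interval -0.11 to 0.23). With GC trends removed Smad6 was called higher, at 0.23 (adjusted p = 0.0197, range 0.0197 to 0.793).

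Secreted antagonists were mostly low, apart from the Lefty pair. Fst (follistatin), which binds activins and some BMPs, rose from 0.483 and 0.595 RPKM to 1.84 and 1.83 RPKM (0.539 ± 0.0794 and 1.83 ± 0.0114 RPKM, SD, n = 2 each; ratio 3.40, log2 change 1.17, SE 0.0977, limma adjusted p = 6.65e-06). At this level the size depends on the added constant, and the log2 change was 1.6 with 0.1 RPKM and 0.88 with 1 RPKM. Chrd (chordin), a BMP antagonist, was at 0.522 and 0.673 RPKM against 0.247 and 0.314 RPKM and fell short of the filter. Without the filter its log2 change was -0.49 and not called (limma adjusted p = 0.0556). Nog (noggin), another BMP antagonist, stayed between 0.308 and 0.391 RPKM, and Cer1, an antagonist of Nodal and BMPs, between 0.0026 and 0.0377 RPKM. Neither was tested.

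Lefty1 and Lefty2, the Nodal antagonists that Nodal signalling induces, were not called. Lefty1 was at 20.9 and 10.4 RPKM under control siRNA, against 10.6 and 13.8 RPKM under Hnrnpk siRNA. Lefty2 was at 17.7 and 10.7 RPKM against 14.7 and 17.4 RPKM. In both genes control siRNA replicate 1 was the highest library and replicate 2 the lowest, so the groups overlapped. The log2 changes were -0.28 for Lefty1 (95% interval -0.83 to 0.28, limma adjusted p = 0.342) and 0.21 for Lefty2 (95% interval -0.20 to 0.62, adjusted p = 0.328). The upper bounds of 0.28 and 0.62 lie below the lower bound of 1.62 for Nodal, and the difference between the genes was not tested. The 2 transcripts share 17.7% of Lefty1 and 18.1% of Lefty2 at 95% identity or more. Part of their reads may therefore not be assignable to 1 gene, which was not tested, and their sum is given too. Summed Lefty levels were 38.6 and 21.1 RPKM after control siRNA and 25.3 and 31.2 RPKM after Hnrnpk siRNA. The ratio of Nodal to that sum was 0.499 and 0.928 under control siRNA, against 2.55 and 2.24 under Hnrnpk siRNA, without overlap.

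The direction of each Lefty gene depended on the control library used. The control libraries differed by 0.97 on the log2 scale for Lefty1, a gap that only 5 of the 12486 genes tested exceeded, and by 0.70 for Lefty2, exceeded by 28 genes, where the median gap was 0.091. Without control siRNA replicate 1 the log2 change was 0.21 for Lefty1 (limma adjusted p = 0.128, range 6.15e-05 to 0.781) and 0.56 for Lefty2, which was then called higher (adjusted p = 0.000136, range 0.000136 to 0.727). Without control siRNA replicate 2 Lefty1 was called lower at -0.77 (adjusted p = 6.15e-05) and Lefty2 was -0.14 (adjusted p = 0.208). Nodal itself was 1.71 to 1.84 over all 13 alternatives.

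The Id genes encode helix-loop-helix proteins without a DNA-binding domain that hold back differentiation factors, and they are direct BMP targets. Id1, Id2 and Id3 rose. Id2 (ENSMUSG00000020644) was at 7.31 and 8.88 RPKM under control siRNA, against 36 and 36.7 RPKM under Hnrnpk siRNA (8.09 ± 1.11 and 36.4 ± 0.519 RPKM, SD, n = 2 each; ratio 4.49). Its change, the largest among the tested members, was 2.11 on the log2 scale (SE 0.0884, limma adjusted p = 1.37e-07).

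Id3 (ENSMUSG00000007872) was at 23.2 and 33.0 RPKM against 67.2 and 76.5 RPKM (28.1 ± 6.93 and 71.9 ± 6.57 RPKM, SD, n = 2 each; ratio 2.56, log2 change 1.36, limma adjusted p = 2.01e-05). Id1 (ENSMUSG00000042745) was at 16.7 and 25.8 RPKM against 42.0 and 50.1 RPKM (21.3 ± 6.45 and 46.0 ± 5.73 RPKM, SD, n = 2 each; ratio 2.17, log2 change 1.12, limma adjusted p = 0.000223). The groups did not overlap for either gene, but in each gene replicate 1 was the lower library of both pairs. The control gap on the log2 scale was 0.61 for Id1, exceeded by 50 genes, and 0.50 for Id3, exceeded by 116 genes. Leaving out either control library kept both calls, with log2 changes of 0.82 and 1.43 for Id1 and of 1.11 and 1.61 for Id3. With no filter on low values the Id1 call was lost (limma adjusted p = 0.0792, range 1.45e-12 to 0.0792).

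Id4, the remaining gene of the family, was the least abundant. It was at 1.77 and 1.47 RPKM against 1.85 and 1.97 RPKM, a log2 change of 0.19 that was not called (95% interval -0.033 to 0.42, limma adjusted p = 0.116). Its upper bound lies below the lower bounds of Id1, Id2 and Id3, which were 0.76, 1.91 and 1.05; the difference between genes was not tested. Id4 was called at 0.29 without control siRNA replicate 1 (adjusted p = 0.0113) and at 0.31 under quantile normalization (adjusted p = 0.0108, range 0.0108 to 0.485). Summed over Id1, Id2 and Id3, the level was 47.2 and 67.7 RPKM after control siRNA and 145 and 163 RPKM after Hnrnpk siRNA, a ratio of 2.68.

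The start-site windows of Id2, Id3 and Id4 are shown to set a gene of the family that was not called beside 2 that rose, and that of Pcsk6 because it rose with Nodal. Capitals mark GGCGCC, and CAGAC or its reverse complement GTCTG.
Id2 (chr12:25096043-25096342, minus strand): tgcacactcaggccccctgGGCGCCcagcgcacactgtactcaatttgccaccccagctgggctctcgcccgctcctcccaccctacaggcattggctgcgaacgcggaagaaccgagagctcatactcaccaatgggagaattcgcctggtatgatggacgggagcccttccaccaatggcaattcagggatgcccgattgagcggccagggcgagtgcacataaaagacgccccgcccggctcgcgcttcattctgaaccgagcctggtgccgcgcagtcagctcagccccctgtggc
Id3 (chr4:136143572-136143871, plus strand): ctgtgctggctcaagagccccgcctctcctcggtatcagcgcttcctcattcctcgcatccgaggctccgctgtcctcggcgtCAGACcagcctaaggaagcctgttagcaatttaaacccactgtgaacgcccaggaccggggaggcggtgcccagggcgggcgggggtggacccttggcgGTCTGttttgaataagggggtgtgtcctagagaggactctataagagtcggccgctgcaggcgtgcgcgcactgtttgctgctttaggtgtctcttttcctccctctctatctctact
Id4 (chr13:48260866-48261165, plus strand): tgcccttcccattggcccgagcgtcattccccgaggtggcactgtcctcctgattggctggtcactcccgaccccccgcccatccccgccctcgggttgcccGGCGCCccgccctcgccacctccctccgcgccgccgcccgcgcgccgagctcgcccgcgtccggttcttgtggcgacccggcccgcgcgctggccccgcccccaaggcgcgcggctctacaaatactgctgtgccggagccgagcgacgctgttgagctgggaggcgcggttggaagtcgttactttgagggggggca
Pcsk6 (chr7:65861886-65862185, plus strand): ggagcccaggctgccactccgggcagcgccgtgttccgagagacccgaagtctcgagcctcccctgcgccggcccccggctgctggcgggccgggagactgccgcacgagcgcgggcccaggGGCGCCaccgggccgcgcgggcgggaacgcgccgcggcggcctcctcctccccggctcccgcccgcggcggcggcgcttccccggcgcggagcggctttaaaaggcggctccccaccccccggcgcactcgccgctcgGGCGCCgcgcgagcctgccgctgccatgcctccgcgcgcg
Id2 and Id4 each held 1 GGCGCC and Pcsk6 held 2, whereas Id3 held none and had 2 of the CAGAC element. GGCGCC was thus present in a window of a gene that rose (Id2) and in one of a gene that was not called (Id4). RefSeq windows were matched for 27 of the 43 members. These genes had 31 windows. GGCGCC was found in 11 of them (35.5%) and in 11.9% of all 32851 windows, and CAGAC in 13 (41.9%) and in 49.6% of all windows. The windows were not matched for base composition, and a match is a description of letters and not of a bound site.

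**Figure D3:**
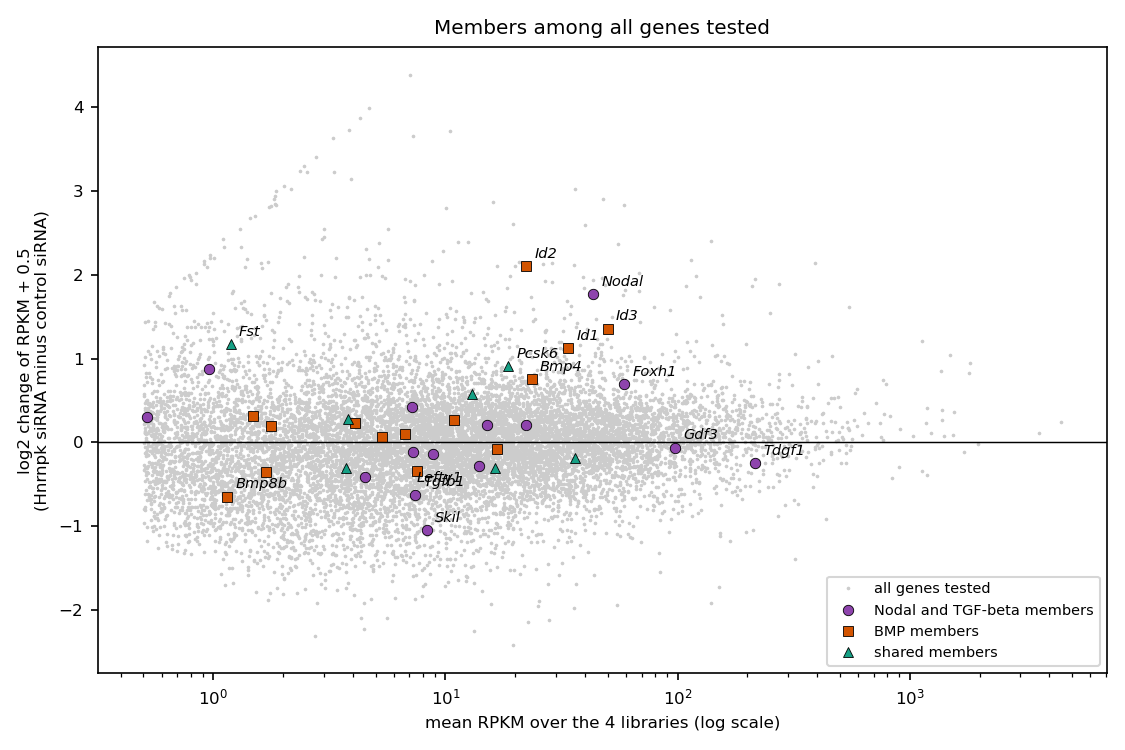
Log2 change of RPKM + 0.5 (y axis, Hnrnpk siRNA minus control siRNA) against mean RPKM over the 4 libraries (x axis, log scale) for all genes tested (grey) and the 36 tested members (coloured by arm). The other 30 tested members lie between -0.65 and 0.91, with Id2, Nodal, Id3, Fst and Id1 above 1 and Skil below -1.

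Other genes of these pathways, listed without regard to their values here though with earlier results of the series known, were read in the same fit. Of 78 such genes present, 47 were tested, 17 were called higher and 15 lower (68.1% called, beside 67.2% of all genes), and their median log2 change was -0.0035. The 8 with the largest called changes included 4 rises. Eomes, a T-box target of Nodal, rose from 1.54 and 1.09 to 5.32 and 4.99 RPKM (log2 change 1.65), and Pmepa1, a TGF-beta target that sequesters SMAD2/3, from 3.42 and 2.97 to 10.1 and 10.3 RPKM (1.54). Msx2, a homeobox target of BMP, rose from 1.08 and 1.01 to 3.43 and 3.81 RPKM (1.41), and Eng (endoglin), a coreceptor, from 20.6 and 15.1 to 38.7 and 39.8 RPKM (1.13). The limma adjusted p was at most 2.61e-05 for these 4.

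The 4 falls were in ligands and a latency protein. Inha, the inhibin alpha subunit, fell from 2.74 and 2.54 to 0.540 and 0.716 RPKM (log2 change -1.48), Gdf1, a partner of Nodal, from 16.5 and 14.3 to 5.19 and 5.92 RPKM (-1.39), Ltbp1, which holds latent TGF-beta in the matrix, from 1.5 and 1.08 to 0.293 and 0.284 RPKM (-1.17), and Inhbc, the activin C subunit, from 1.18 and 1.25 to 0.319 and 0.271 RPKM (-1.11). Their limma adjusted p was at most 2.59e-05. Gdf1 is known to share a transcript with Cers1, listed in the table under its older symbol Lass1, so its level is uncertain, and 14.4% of Inhbc exons are overlapped by a gene on the opposite strand. Ltbp1 and Inhbc reached the filter only through the control libraries. Bambi, a decoy receptor for both arms, was at 2.60 and 2.8 RPKM against 2.29 and 2.86 RPKM and was not called (-0.064). Acvr1c (ALK7), a second type I receptor for Nodal, was at 0 in both control libraries and at most at 0.0029 RPKM, Smad9 was between 0.166 and 0.258 RPKM, and Cfc1 (Cryptic) between 0.205 and 0.534 RPKM, none of them tested.

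Markers of cell types that a stem cell culture could hold differed between the groups too. Their counts stand beside 32.2% of all genes tested called higher and 35.0% called lower. The summed level of 10 embryonic stem cell markers was 3874 and 3719 RPKM after control siRNA and 4573 and 4878 RPKM after Hnrnpk siRNA, with 3 called higher and 3 lower. Without Dppa5a, the most abundant of them, the other 9 summed to 2554 and 2443 RPKM against 2409 and 2427 RPKM. That of 10 primitive endoderm markers was 25.2 and 24.0 RPKM against 65.9 and 68.5 RPKM, and 6 of 8 tested were called higher, led by Gata6 (0.721 and 0.565 RPKM against 13.7 and 14.1 RPKM), while Sox17 and Foxa2 stayed under the filter and Pdgfra reached it only through the Hnrnpk siRNA libraries. Trophectoderm markers summed to 22.5 and 25.6 RPKM against 47.5 and 50.1 RPKM over 7 genes (4 of 4 tested higher). Cdx2, Krt7 and Elf5 were under the filter. Cdx2 (0.166 and 0.303 RPKM against 0.731 and 0.749 RPKM) and Krt7 were higher in both Hnrnpk siRNA libraries. Elf5 was lower in both, at 0.105 and 0.109 RPKM against 0.0608 and 0.0705 RPKM. Tfap2c and Plet1, also on the list, had no row that could be used. Gata3 led in log2 change, whereas Krt18 made up most of the sum, at 15.8 and 18.9 RPKM against 30.9 and 33.2 RPKM. Primitive streak markers summed to 5.21 and 4.99 RPKM against 9.85 and 9.25 RPKM over 8 genes (4 of 5 tested higher, 1 lower), with Eomes leading. Most of that rise was in Eomes, at 1.54 and 1.09 RPKM against 5.32 and 4.99 RPKM. T, Eomes, Gsc and Mixl1 were also among the other pathway genes above. Of the 4 called higher, Gsc and Wnt3 reached the filter only through the Hnrnpk siRNA libraries, and the 1 called lower was Mixl1 (log2 change -0.73). Fgf8 (0.587 and 0.543 RPKM against 0.344 and 0.345 RPKM) and Mesp1 (0.480 and 0.466 RPKM against 0.243 and 0.183 RPKM) were under the filter and lower in both Hnrnpk siRNA libraries. Neural markers summed to 103 and 116 RPKM against 84.6 and 94.8 RPKM over 5 genes (3 of 3 tested lower). Zic1 and Neurog2 were at most 0.0233 RPKM, near 0, though higher in both Hnrnpk siRNA libraries. Sox1 and Map2, also on the list, had no row that could be used. Tubb3 alone made up most of the neural sum, at 99.0 and 111 RPKM against 82.2 and 92.6 RPKM. Fibroblast markers summed to 10.4 and 8.79 RPKM against 5.05 and 5.31 RPKM over 8 genes (2 of 3 tested lower), with Col3a1 at most 0.0118 RPKM in any library. Thy1 made up most of the control sum, at 6.90 and 5.20 RPKM against 2.22 and 2.28 RPKM. Pdgfrb (not called) and Lum (not tested) were higher in both Hnrnpk siRNA libraries. The part of such cells in the changes of Nodal, Bmp4, Fst and the Id genes was not tested, and in bulk RNA a change in the number of cells of a type and in the RNA per cell cannot be told apart.

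**Figure D4:**
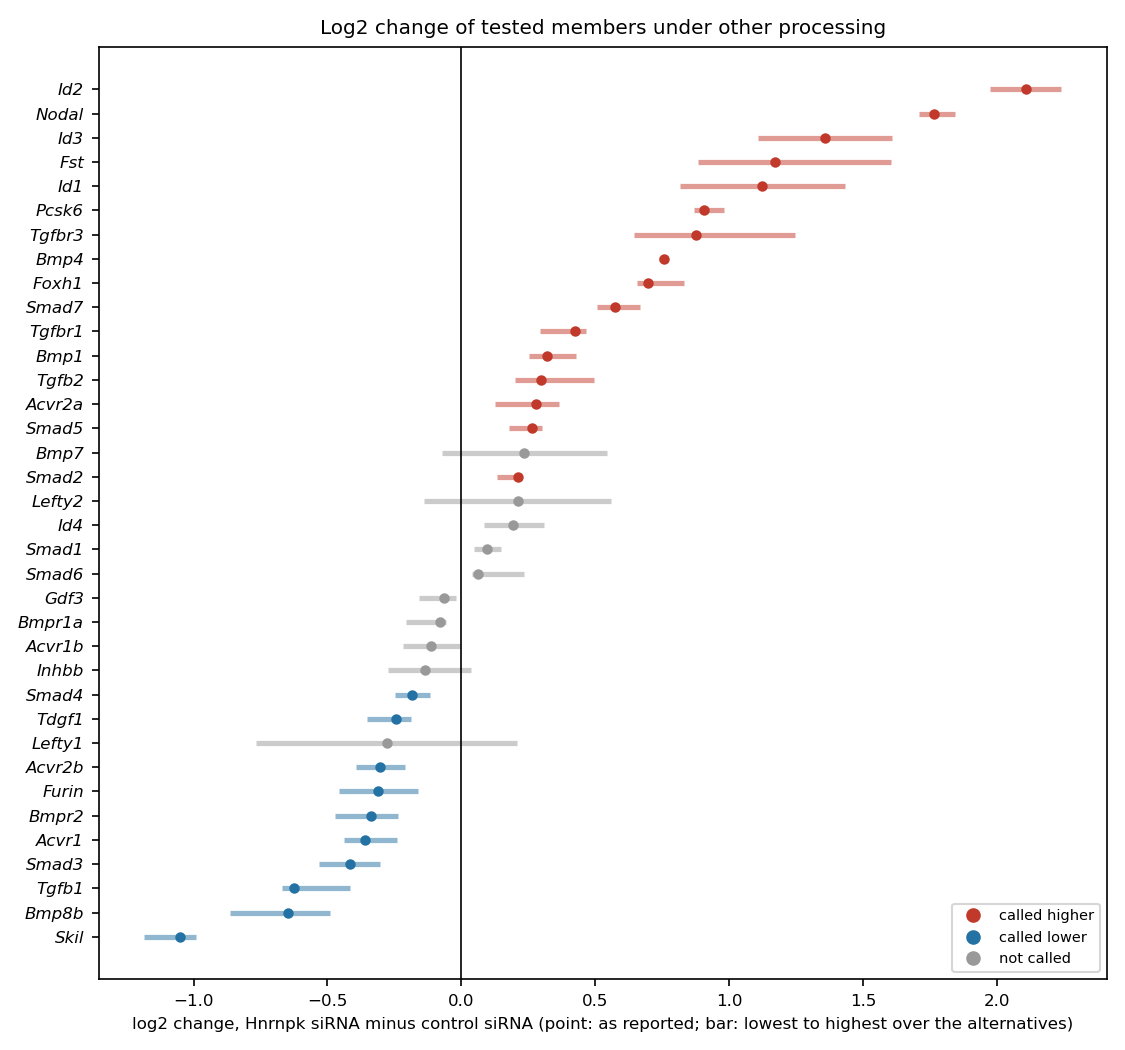
Log2 change (x axis, Hnrnpk siRNA minus control siRNA) of each tested member (y axis) as reported (point) and its lowest to highest value over the alternatives (bar), coloured by call. The bars of Nodal, Id2, Bmp4, Pcsk6 and Skil stay clear of 0, and those of Lefty1, Lefty2, Bmp7 and Inhbb cross it.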

How the data were processed

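RNA-seq was read from 1 table of RPKM values as deposited by the authors, with a column for each of the 4 libraries. The submitters' processing notes name BWA, SAMtools and mm9; the sources used here do not give the counting, the annotation or how reads matching several places were treated. The labels describe the RNA as depleted of ribosomal RNA and as poly(A) selected. Members were found by symbol. Read counts were not recovered from the RPKM: 27.2% to 30% of low values of single-exon genes fell within 0.02 of a whole number. Equal low values gave relative depths of 1, 0.982, 0.891 and 0.882 (control replicates 1 and 2, Hnrnpk siRNA replicates 1 and 2).

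Values were tested as log2(RPKM + 0.5) with limma 3.58.1 in R 4.3.3 (mean-variance trend, two-sided, a filter at a mean of 0.5 RPKM, 7.47 prior degrees of freedom), adjusted over the 12486 genes tested. On simulated data for these genes with 200 changed, limma called 83.9% of changes of 0.5 and 100% of changes of 1, with 8 of 193 calls unchanged genes. The simulation had far fewer changed genes than the 67.2% called here, and its noise was independent between libraries. Its shares therefore do not give the error rate or sensitivity of the calls reported here. At n = 2 in each group, permuting the labels of a single gene exactly cannot reach 0.05. The labels call the libraries biological replicates without saying whether they were separate cultures, so p-values may cover technical spread only. Shared sequence was sought with BLAST 2.17.0 in GENCODE M21 transcripts (95% identity, 100 bases). Where a symbol had 2 rows, the identifier the reference pairs with it was used. The members, lists and alternatives were chosen with earlier results of these data known. The genes named are all members, the 8 other pathway genes with the largest called changes in non-overlapping groups and a few fixed ones. Markers are named where they lead a list, dominate its sum, go against it, depend on the filter, are near 0 or also pathway genes. The alternatives were an added 0.1 or 1 RPKM, no filter or 1 RPKM, median-ratio and quantile scaling, the replicate block, no trend, GC trends removed (loess) and each library left out.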

Additional observations from a re-analysis of the deposited data

How the results depend on the processing

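The 26 called members kept their direction in each alternative that tested them, which was all 13 for 24 members, 12 for Tgfbr3 and 10 for Tgfb2, and 14 of the 26 also kept the call in each. Of the 10 members not called, 9 were called in at least 1 alternative and 4 changed sign in at least 1: Inhbb to 0.034 with GC trends removed and to 4.71e-05 without control siRNA replicate 2, Lefty1 to 0.21 without control siRNA replicate 1, and Lefty2 to -0.14 and Bmp7 to -0.071 without control siRNA replicate 2. Without control siRNA replicate 1, Inhbb was -0.27, Lefty2 0.56 and Bmp7 0.54, and without control siRNA replicate 2, Lefty1 was -0.77. Without any filter on low values, members called lower numbered 5 and shared members called lower 0, and the cause was not tested. All genes called lower numbered 3771 without the filter and 4371 with it. A filter of 1 RPKM left 9 other pathway genes called lower, since fewer genes were tested.

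Leaving out 1 library at a time gave 5 to 12 members called lower and 11 to 19 called higher, 1 to 3 of the BMP arm called lower, and 0 to 3 of the shared members called lower. The shared members called lower numbered 1 without control siRNA replicate 1 or without Hnrnpk siRNA replicate 1, and 0 without Hnrnpk siRNA replicate 2, which also gave the lowest counts called lower for the BMP arm and for all members.

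The numbers were not taken as pairs, since the labels do not say that equal numbers share a culture or day. The correlation of deviations between same-numbered libraries was 0.0267 over the genes tested, with 2 pairs. A value over all genes cannot show whether single genes were paired, and Id1, Id2 and Id3 were lower in replicate 1 of both groups. With the replicate block, 16 members were called higher and 10 lower, as without it. Inhba, Tgfb3, Tgfbr2, Bmp2, Nog, Chrd and Cer1 were left untested by the filter on mean RPKM; the read depth behind each value is unknown.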

Other observations

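Some members of both arms were among the genes with the widest gap between the control libraries, and the sense of the gap did not follow the arms. In control siRNA replicate 1, Lefty1, Lefty2 and Bmp7 were above replicate 2 by 0.97, 0.70 and 0.61 on the log2 scale, and Id1 and Id3 were below it by values of -0.61 and -0.50. Between the Hnrnpk siRNA libraries the same differences, replicate 1 minus 2, were -0.36 for Lefty1, -0.23 for Lefty2, 0.0049 for Bmp7, -0.25 for Id1 and -0.19 for Id3. The median gap over all genes tested was 0.091 for the control pair and 0.069 for the Hnrnpk siRNA pair. The labels give no culture, day or batch that would separate the control libraries.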
